A study of Mus musculus with 4 samples.

Results

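The luminal and alveolar progenitor genes described here are Kit, Elf5, Ehf, Elf3, Cd14, Wfdc18, Stat5a, Muc1, Cd24a and Epcam, 10 of the 18193 genes that had a probe set with a single gene symbol. They were chosen by symbol, and all 19 probe sets carrying one of these symbols were used, of 45037 tested. RNA came from mouse mammary cells of virgin CD1 females 8 to 12 weeks old, sorted as lineage-negative, CD24-positive and CD29-high, a basal gate enriched for stem cells. Colonies were cultured in Matrigel, a gel of basement membrane, in medium with 50 ng/ml EGF, and second-passage colonies (passage 2) were harvested after 6 to 7 days. The Wnt3A group (2 arrays, Wnt3A 1 and Wnt3A 2) received 200 ng/ml purified Wnt3A, a secreted activator of canonical Wnt signalling, and the control group (2 arrays, Control 1 and Control 2) received vehicle (CHAPS in PBS). Whether the 2 arrays of either group stem from different mice or cultures is not in the labels, so p-values reflect only array-to-array spread, possibly technical.

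Mammary ducts have an outer basal layer and an inner luminal layer, and the luminal layer holds hormone-sensing cells and progenitors that give rise to the milk-producing alveoli. Luminal progenitors are known for the receptor Kit and the surface protein Cd14, while prolactin acting through Stat5a and the transcription factor Elf5 drives alveolar development in pregnancy. Epcam, Cd24a and Muc1 are surface proteins of epithelial cells, Muc1 on the apical face of luminal cells. Elf5, Ehf and Elf3 belong to the epithelial branch of the Ets family, whose members bind DNA sites around a GGAA core.

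Every value below is a log2 expression value of 1 probe set minus its own median over the 4 arrays, so 0 is the middle of that probe set and levels of different genes cannot be set against each other. A coarse band for the removed level was inferred from how finely the deposited numbers were stored. By that reading 12 of the 19 probe sets had a median of log2 8 to 16, 6 lay at 4 to 8 and 1, an Ehf probe set, lay below 4. The upper band held 33.4% of all probe sets. It held 23 of 40 probe sets of basal and myoepithelial markers and 17 of 18 of luminal lineage markers. The only probe set of Cdh1, of the luminal list, was placed below 4. That band took any probe set whose numbers matched neither upper band, so it does not by itself show a low level. The upper band also held 1 of 17 fibroblast, 0 of 8 endothelial, 2 of 11 leukocyte and 1 of 7 adipocyte probe sets. A band depends on a probe set's affinity as well as on its RNA, so these counts rank no gene or cell type against another. Axin2, a feedback target of canonical Wnt signalling, stood at 1.20 and 0.58 in the Wnt3A arrays, against -0.58 and -1.18 in the control arrays, on 1 of its 2 probe sets, and differed by -0.12 on the other. Procr, also higher with Wnt3A, stood at 0.66 and 2.31 in the Wnt3A arrays, against -1.87 and -0.66 in the control arrays. Lgr5, of the same Wnt response list, was lower, with differences of -1.48 and -0.14 on its 2 probe sets. Of the list's 27 probe sets, both Wnt3A arrays lay above both controls for 10 and below both for 4. These shares were 17.4% and 16.3% over all probe sets. In colonies, a lower value may reflect fewer cells of a type or less RNA per cell, and these cannot be told apart.

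No member passed the test between the groups. The limma fit over all 45037 probe sets called 0 of the 19 at an adjusted p under 0.05, where 0% of all probe sets were called, and members' adjusted p-values lay between 0.74 and 1. At an unadjusted p under 0.05 there was 1 member, a Stat5a probe set lower with Wnt3A, against 3.24% of all probe sets in that direction, and 0 higher, against 2.98% (6.22% in both directions together). Both Wnt3A arrays lay below both controls for 3 of the 19, a share near the 16.3% of all probe sets, and above both for 0, against 17.4%, so that 3 were separated in either direction, against 33.7%. The mean was lower with Wnt3A for 16 of the 19 probe sets, where 48.3% of all probe sets had a lower mean, but the median difference was only -0.10, against 0.01 over all probe sets. Without Wnt3A 2 the mean was lower for 10 of the 19, where 45% of all probe sets had a lower mean, so this count rests in part on that array. Probe sets of a gene share that gene's RNA and are not independent counts. An exact permutation test of 2 against 2 arrays cannot give a two-sided p below 0.33.

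**Figure D1:**
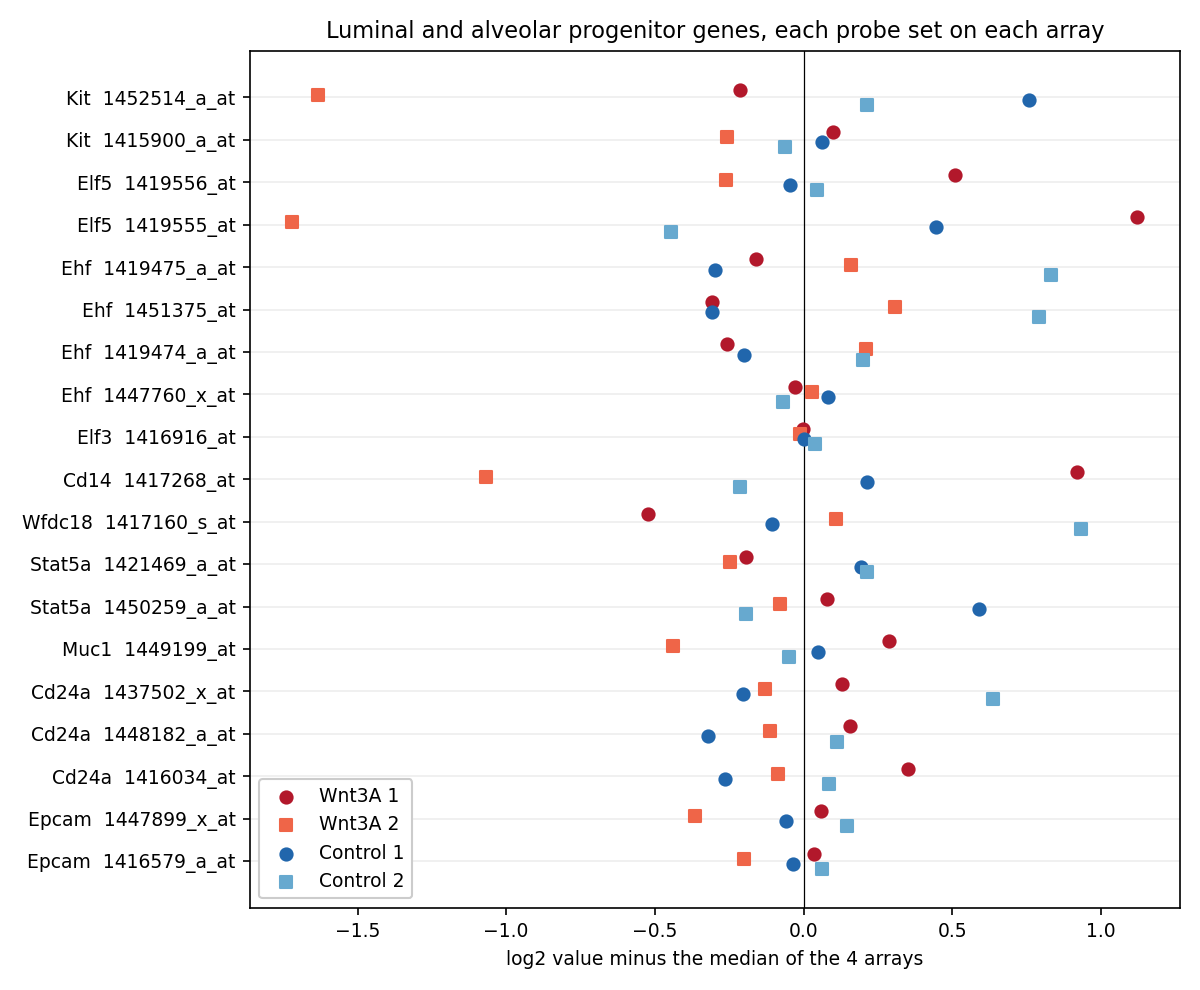
Log2 value minus the 4-array median (horizontal axis) of each of the 19 probe sets (rows) on the Wnt3A arrays (red) and the control arrays (blue), circles for number 1 and squares for number 2. For Elf5 1419555_at and Cd14 the 2 Wnt3A arrays are the highest and the lowest of the 4, at 1.12 and -1.72 for Elf5.

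The upstream sequences of Elf5, Kit and Stat5a are shown because Elf5 had the widest spread between arrays, Kit the largest difference between group means and Stat5a the probe set with an unadjusted p under 0.05. They are the 250 bases before RefSeq transcription starts (build GRCm38.p6, plus strand, 5′ to 3′). Capitals mark GGAAG, an Ets core, and CTTTGAT, a site of the Tcf and Lef factors of Wnt signalling, each searched on both strands.
Elf5, first start, chr2:103411848-103412097: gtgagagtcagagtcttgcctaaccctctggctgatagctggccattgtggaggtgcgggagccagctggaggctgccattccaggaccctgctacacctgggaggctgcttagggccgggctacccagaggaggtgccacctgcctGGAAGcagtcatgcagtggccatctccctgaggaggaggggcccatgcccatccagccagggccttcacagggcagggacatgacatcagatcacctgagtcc
Elf5, second start, chr2:103423818-103424067: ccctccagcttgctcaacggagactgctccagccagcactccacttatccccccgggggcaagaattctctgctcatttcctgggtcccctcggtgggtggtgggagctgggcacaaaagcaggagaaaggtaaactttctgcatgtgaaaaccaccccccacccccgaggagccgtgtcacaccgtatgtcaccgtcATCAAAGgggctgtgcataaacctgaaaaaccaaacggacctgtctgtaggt
Kit, chr5:75574737-75574986: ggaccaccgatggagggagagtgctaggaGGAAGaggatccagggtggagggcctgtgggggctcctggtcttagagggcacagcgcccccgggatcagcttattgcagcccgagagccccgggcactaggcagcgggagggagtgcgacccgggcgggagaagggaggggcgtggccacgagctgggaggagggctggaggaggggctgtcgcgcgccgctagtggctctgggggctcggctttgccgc
Stat5a, chr11:100860234-100860483: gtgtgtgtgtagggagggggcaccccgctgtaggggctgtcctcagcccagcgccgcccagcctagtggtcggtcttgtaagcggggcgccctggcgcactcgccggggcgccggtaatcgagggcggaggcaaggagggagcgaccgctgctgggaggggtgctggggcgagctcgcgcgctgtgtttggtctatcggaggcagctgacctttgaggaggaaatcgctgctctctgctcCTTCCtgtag
Over the 10 member windows in the RefSeq table, from 7 genes, GGAAG was found in 6, and in 64.1% of all 32851 windows of this length. CTTTGAT was in 1 member window, the second Elf5 start, and in 3.21% of all windows. The related CTTTGAA was in 0 of the 10 windows and 4.46% of all. The Stat site TTCNNNGAA, which reads the same on both strands, was in 0 member windows and 7.02% of all. The 2 Kit windows overlap almost wholly, and GGAAG and TTCNNNGAA can share bases. Stat5a has another window, chr11:100859406-100859655, which is not shown and holds 2 GGAAG matches. These matches describe letters only.

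Kit, the receptor for stem cell factor, had the largest difference among the 10 genes, on 1 of its 2 probe sets. Kit 1452514_a_at stood at -0.21 in Wnt3A 1 and -1.63 in Wnt3A 2, against 0.76 in Control 1 and 0.21 in Control 2. All Wnt3A values were thus below all control values, with Wnt3A 2 far below the rest. The difference was -1.41 ± 0.53 log2 units (SE, n = 2 arrays per group, limma unadjusted p = 0.053, adjusted p = 0.805), with a 95% interval of -2.84 to 0.03. It was -2.12 without Wnt3A 1 and -0.70 without Wnt3A 2. Kit 1415900_a_at, which lay in a higher level band, stood at 0.10 and -0.26 in the Wnt3A arrays, against 0.06 and -0.06 in the control arrays. Here the groups overlapped and the difference was -0.08 ± 0.17. On both probe sets Wnt3A 2 was lowest, but the size of the difference was not alike.

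The genes whose 4-array pattern lay nearest to Kit 1452514_a_at by Euclidean distance, over all probe sets with a single symbol, were Col11a1 (distance 0.25), Epha3 (0.32), Hey1 (0.41), Enpp3 (0.45) and Ramp1 (0.48). Hey1, which encodes a transcription factor induced by Notch, is also among the luminal progenitor genes described below. Its values were -0.47 and -1.72 in the Wnt3A arrays, against 0.94 and 0.47 in the control arrays. A link between these genes and Kit was not tested.

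Elf5, the Ets factor of alveolar development, varied more between the 2 Wnt3A arrays than any other member, on 1 of its 2 probe sets. Elf5 1419555_at stood at 1.12 in Wnt3A 1 and -1.72 in Wnt3A 2, against 0.45 in Control 1 and -0.45 in Control 2. The Wnt3A arrays were thus the highest and the lowest of the 4, 7.17-fold apart, with the controls between them. The difference between group means was -0.30 ± 1.02, with a 95% interval from -3.06 to 2.47, and it was -1.72 without Wnt3A 1 and 1.12 without Wnt3A 2. Elf5 1419556_at, in a lower level band, gave the same order of the Wnt3A arrays, at 0.51 and -0.26, against -0.05 and 0.05 in the control arrays. Its difference was 0.13 ± 0.29.

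Ehf, the protein-coding gene next to Elf5 on chromosome 2 in RefSeq, had another pattern. Ehf 1419475_a_at stood at -0.16 in Wnt3A 1 and 0.16 in Wnt3A 2, against -0.30 in Control 1 and 0.83 in Control 2. Ehf 1451375_at stood at -0.31 and 0.31 in the Wnt3A arrays, against -0.31 and 0.79 in the control arrays. In both, Wnt3A 2 was above Wnt3A 1 and Control 2 was the highest array, opposite to Elf5 1419555_at in either group. Ehf 1419474_a_at had -0.26 and 0.21 in the Wnt3A arrays, against -0.20 and 0.20 in the control arrays, so the group means nearly coincided (-0.02 ± 0.24). The fourth Ehf probe set, in the lowest band, stayed within -0.07 and 0.08 on all arrays. Differences of the 4 Ehf probe sets lay between -0.27 and -0.01.

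Elf3, the third epithelial Ets factor, hardly varied on its only probe set, which lay in the band of log2 4 to 8. Elf3 1416916_at stood at -0.00 and -0.01 in the Wnt3A arrays, against 0.00 and 0.04 in the control arrays. The groups did not overlap, but the difference was -0.03 ± 0.12 with a 95% interval of -0.34 to 0.29. Spread between arrays thus differed among these 3 related factors, and also between the probe sets of Elf5 and between those of Ehf. No probe set of the 3 factors showed a difference between groups beyond its error.

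**Figure D2:**
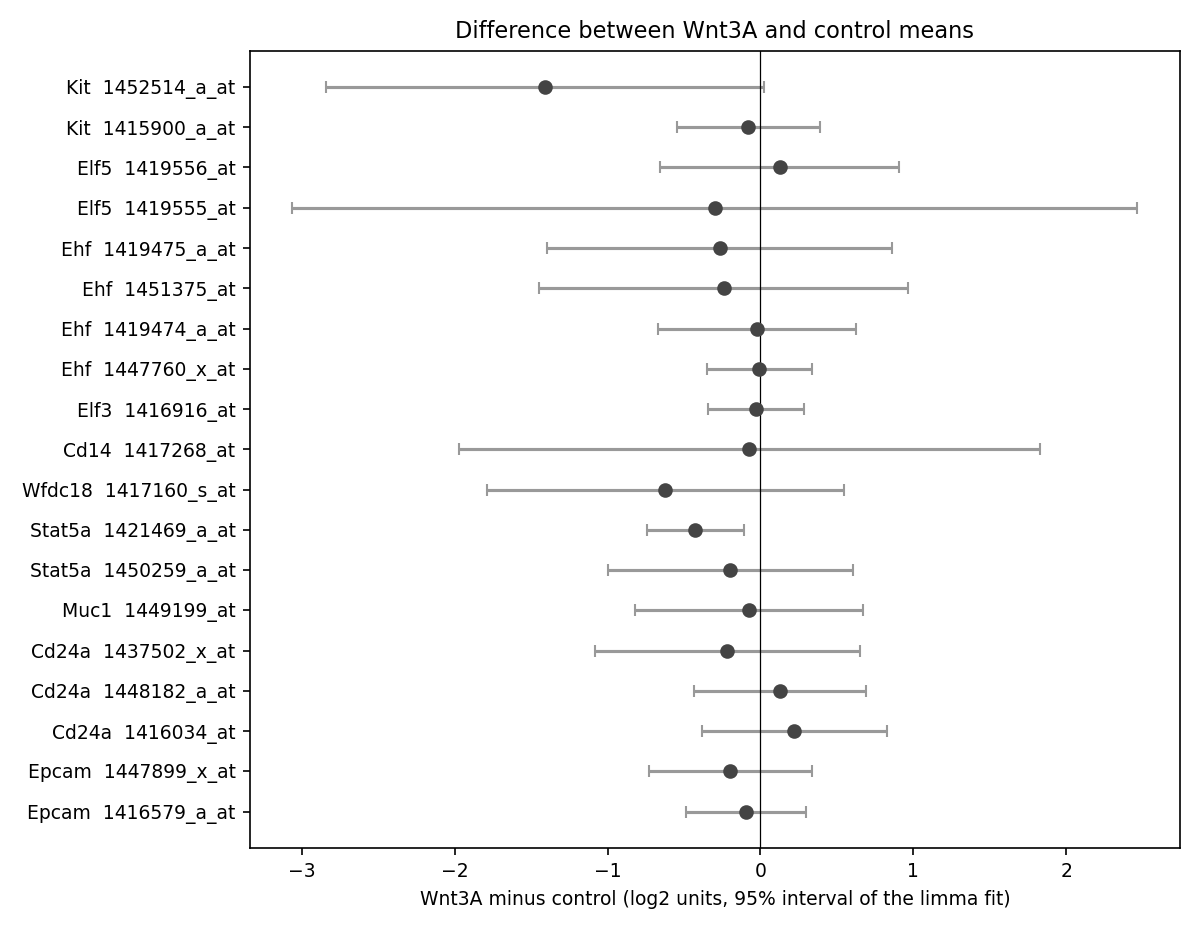
Wnt3A minus control (horizontal axis, log2 units) for each of the 19 probe sets (rows), with bars for the 95% interval of the limma fit. Only the bar of Stat5a 1421469_a_at, from -0.74 to -0.11, leaves out 0, and the bar of Elf5 1419555_at runs from -3.06 to 2.47.

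Stat5a, which carries the prolactin signal to the nucleus, had the steadiest difference. Stat5a 1421469_a_at stood at -0.19 in Wnt3A 1 and -0.25 in Wnt3A 2, against 0.19 in Control 1 and 0.21 in Control 2. Arrays of a group lay close together and the groups were apart. The difference was -0.43 ± 0.12 (limma unadjusted p = 0.020, adjusted p = 0.74), a 1.34-fold lower value with Wnt3A, and it stayed between -0.45 and -0.40 when each array was left out. Stat5a 1450259_a_at did not show this, with 0.08 and -0.08 in the Wnt3A arrays, against 0.59 and -0.19 in the control arrays. Its difference was -0.20 ± 0.30 and turned to 0.19 without Control 1.

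Wfdc18 encodes a small secreted protein with a whey acidic protein domain. Its probe set 1417160_s_at stood at -0.52 in Wnt3A 1 and 0.11 in Wnt3A 2, against -0.11 in Control 1 and 0.93 in Control 2. Control 2 was the highest array and Wnt3A 1 the lowest, and the groups overlapped. The difference was -0.62 ± 0.43 (limma unadjusted p = 0.22), with -1.14 without Control 1 and -0.10 without Control 2. Its nearest other member by distance over the 4 arrays was Ehf 1451375_at (0.38), which also had its highest value in Control 2.

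Cd14, a co-receptor for bacterial lipopolysaccharide, followed Elf5. Cd14 1417268_at stood at 0.92 in Wnt3A 1 and -1.07 in Wnt3A 2, against 0.21 in Control 1 and -0.21 in Control 2. As for Elf5, the Wnt3A arrays were the highest and the lowest, 3.97-fold apart. The difference was -0.07 ± 0.70, with a 95% interval of -1.98 to 1.83, and it was -1.07 without Wnt3A 1 and 0.92 without Wnt3A 2. Elf5 1419555_at and Cd14 were each other's nearest member (distance 0.76).

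Muc1, the apical mucin, had the same order over a smaller range. Muc1 1449199_at stood at 0.29 in Wnt3A 1 and -0.44 in Wnt3A 2, against 0.05 in Control 1 and -0.05 in Control 2. The difference was -0.07 ± 0.28, and the groups overlapped.

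Epcam is an adhesion molecule found throughout the epithelium. The Wnt3A arrays differed by 0.23 and 0.42 on its 2 probe sets, where the member median was 0.42. Epcam 1416579_a_at stood at 0.03 and -0.20 in the Wnt3A arrays, against -0.03 and 0.06 in the control arrays. Epcam 1447899_x_at stood at 0.06 and -0.37 in the Wnt3A arrays, against -0.06 and 0.15 in the control arrays. Wnt3A 2 was lowest on both, and the differences were -0.10 ± 0.14 and -0.20 ± 0.20.

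Cd24a encodes the surface glycoprotein used in the sort, which both groups went through before culture. Cd24a 1416034_at stood at 0.35 in Wnt3A 1 and -0.09 in Wnt3A 2, against -0.26 in Control 1 and 0.09 in Control 2. Cd24a 1448182_a_at stood at 0.16 and -0.11 in the Wnt3A arrays, against -0.32 and 0.11 in the control arrays. Control 1 was the lowest array for both, and the differences were 0.22 ± 0.22 and 0.13 ± 0.21. Cd24a 1437502_x_at gave -0.22 ± 0.32, with 0.13 and -0.13 in the Wnt3A arrays, against -0.20 and 0.64 in the control arrays. The 3 Cd24a probe sets thus differed in sign, and each difference was near or below its standard error.

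Spread within groups was wider than the difference between them for most members. The 2 Wnt3A arrays differed by more than the group means did for 16 of the 19 probe sets, where 61.4% of all probe sets showed this. A gap of at least 1 log2 unit between the Wnt3A arrays was seen for 3 of the 19 (Kit, Elf5 and Cd14, each on 1 probe set, all lower in Wnt3A 2), against 3.68% of all probe sets. A gap of that size between the controls was seen for 3 others (Ehf on 2 probe sets and Wfdc18, all higher in Control 2), against 3.17%. The median gap was 0.42 between Wnt3A arrays and 0.40 between control arrays for members, against 0.19 and 0.18 over all probe sets. Wnt3A 2 was the lowest of the 4 arrays for 10 of the 19 probe sets, in 7 of the 10 genes, against 28% of all probe sets.

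Genes that keratinocytes switch on as they cornify differed between the same arrays. The 33 probe sets of the squamous differentiation list had a median of 0.18 in Wnt3A 1 and 1.16 in Wnt3A 2. Their medians were -0.47 in Control 1 and -0.34 in Control 2. Of the 33, 26 were separated higher with Wnt3A and 0 lower, against 17.4% and 16.3% of all probe sets. Krt1, a keratin of suprabasal epidermis, stood at 0.94 and 6.28 in the Wnt3A arrays, against -0.94 and -1.28 in the control arrays. The part of these genes in the low Wnt3A 2 values of Kit, Elf5 and Cd14 was not tested. Of the 40 probe sets of basal and myoepithelial markers, 20 were lowest in Control 1, against 22.1% of all probe sets, though the list's median there was only -0.11. The contractile gene Tagln, at -0.08 and 0.37 in the Wnt3A arrays, against -4.03 and 0.08 in the control arrays, was one of them, and Myh11, at -3.30 in Control 1, another. The contractile gene Mylk, named after its values were seen, was instead lowest in Wnt3A 1, at -0.91, and stood at -0.17 in Control 1. Krt15, a basal keratin, and Oxtr, the oxytocin receptor gene, were high in both controls, at 1.07 and 1.26 in Control 1. The Wnt3A minus control difference of Oxtr was -2.60 on this probe set but -0.17 on its other. The part of these genes in the Ehf, Cd24a and Wfdc18 values was not tested either.

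**Figure D3:**
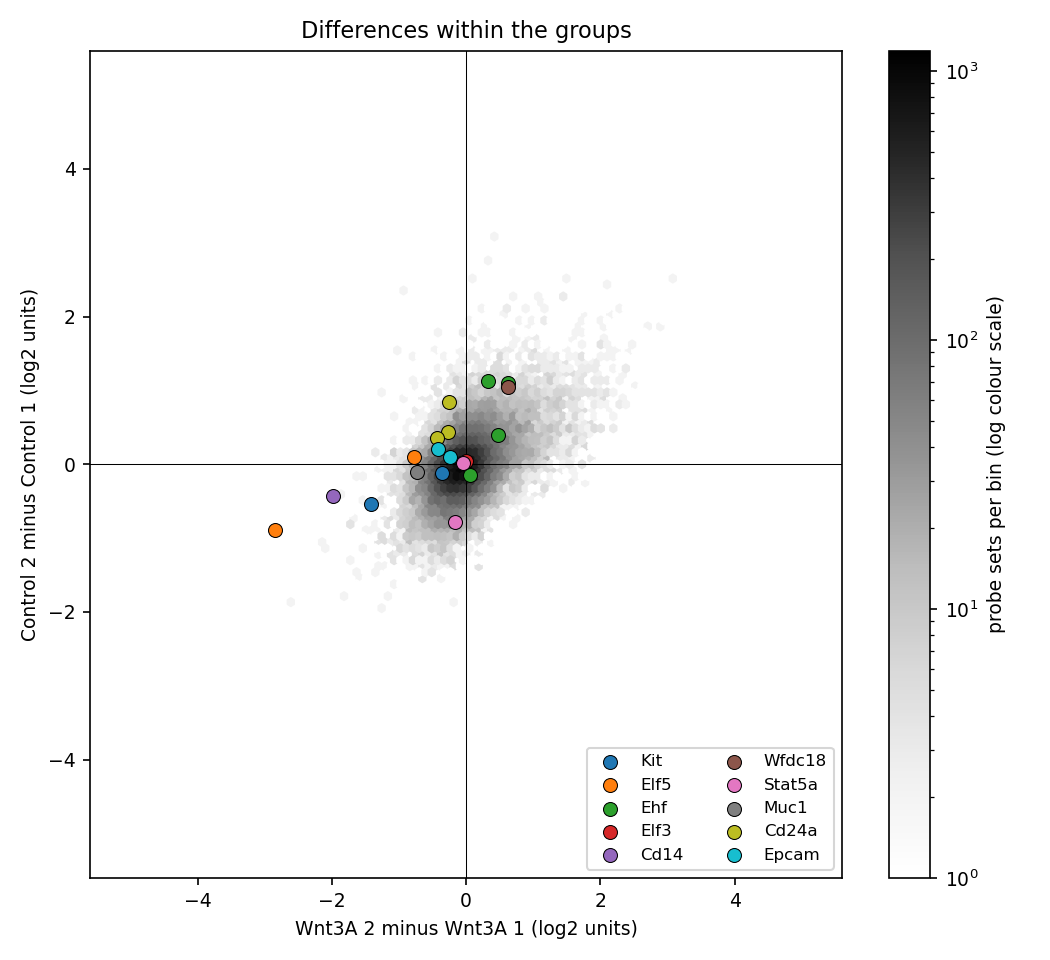
Wnt3A 2 minus Wnt3A 1 (horizontal axis) against Control 2 minus Control 1 (vertical axis), in log2 units, for all 45037 probe sets (grey bins, log colour scale) and the 19 probe sets of the luminal and alveolar progenitor genes (coloured points). Of the coloured points, 1 probe set each of Elf5, Cd14 and Kit lies furthest left, down to -2.84 for Elf5. At the top lie 2 probe sets of Ehf, up to 1.13, and that of Wfdc18. Other probe sets of Elf5, Kit and Ehf lie nearer the middle.

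For genes outside the 10 members, each value is that of the probe set with the largest absolute difference in the gene's highest level band. Other probe sets of the same gene can differ in size or direction. In the lists below, counts at an unadjusted p under 0.05 are to be read beside 3.24% lower and 2.98% higher over all probe sets, and counts of separated groups beside 16.3% lower and 17.4% higher. Among partners of the members in prolactin and alveolar signalling, Id2, Nfib and Nfix had the low values with Wnt3A. Of the 46 probe sets of this list (17 of its 18 genes), 0 passed the adjusted test, 11 were lower and 0 higher at an unadjusted p under 0.05, and 15 were separated lower against 2 higher. All 11 came from these 3 genes, whose probe sets share RNA, so the counts give no direction for the list. The list's median difference was -0.11, against 0.01 over all probe sets. Id2, an inhibitor of helix-loop-helix factors needed for alveolar growth in mice, stood at -0.27 and -1.01 in the Wnt3A arrays, against 0.27 and 0.57 in the control arrays (-1.06 ± 0.30). Its 3 probe sets differed by -1.06 to -0.83. Nfib and Nfix, members of the nuclear factor I family, differed by -1.11 ± 0.41 and -1.05 ± 0.24. The 7 Nfib probe sets ranged from -1.11 to 0.40 and the 5 of Nfix from -1.05 to -0.33. Nrg1, a growth factor of the EGF family, differed by 0.40 ± 0.36. Stat5b, the close relative of Stat5a, stood at -0.11 and -0.24 in the Wnt3A arrays, against 0.11 and 0.14 in the control arrays (-0.30 ± 0.12), and Cish, a Stat5 target, differed by -0.01 ± 0.17. These last 2 genes were picked after their values were seen.

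The ligand of Kit was below both controls in both Wnt3A arrays. Kitl, which encodes stem cell factor, stood at -0.42 and -0.59 in the Wnt3A arrays, against 1.11 and 0.42 in the control arrays. The difference was -1.26 ± 0.27 (limma unadjusted p = 0.0078), and its 4 probe sets ranged from -1.26 to -0.50. Of the 39 probe sets for Kit ligand and Kit signalling, 0 passed the adjusted test, 7 (from 4 genes) were lower and 0 higher at an unadjusted p under 0.05, 14 were separated lower and 3 higher, and the median was -0.11. Pik3r1, a regulatory subunit of phosphoinositide 3-kinase, differed by -0.93 ± 0.38 and the phosphatase gene Ptpn6 by -0.43 ± 0.16. The other Ptpn6 probe set differed by -0.11. Cbl, a ubiquitin ligase that acts on active receptors, differed by -0.69 ± 0.59 and was low in Wnt3A 1 alone, at -1.53. Its 3 probe sets ranged from -0.69 to 0.13.

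Other genes known from luminal progenitors went in both directions. Among 35 probe sets (16 of 17 genes), 0 passed the adjusted test. At an unadjusted p under 0.05, 1 was higher and 4 lower. Groups were separated higher for 5 and lower for 9. Wnt3A 2 was the lowest array for 18 of the 35, against 28% of all probe sets. Tspan8, a membrane tetraspanin, stood at -1.49 and -0.60 in the Wnt3A arrays, against 0.60 and 1.67 in the control arrays (-2.18 ± 0.49), and its 5 probe sets ranged from -2.41 to -0.33. Hey1 differed by -1.79 ± 0.47. Aldh1a3, a retinaldehyde dehydrogenase of luminal progenitors, was higher, with 0.26 and 0.74 in the Wnt3A arrays, against -1.62 and -0.26 in the control arrays (1.43 ± 0.51).

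Milk genes ordered the arrays differently from Elf5. Csn1s1, a casein gene, stood at 0.62 and -2.99 in the Wnt3A arrays, against 2.30 and -0.62 in the control arrays (-2.03 ± 1.59). Csn3, another casein gene, had 0.49 and -1.72 in the Wnt3A arrays, against 2.71 and -0.49 in the control arrays, and Lalba, for alpha-lactalbumin, 0.07 and -1.12, against 2.10 and -0.07. On these probe sets of all 3 genes, Control 1 was highest and Wnt3A 2 lowest, and the groups overlapped. The Csn3 difference was -1.73 on this probe set and -0.11 on its other. Xdh, which encodes a milk fat globule enzyme, differed by 0.69 ± 0.15. Of the 20 milk and secretory probe sets 9 lay in the lowest level band, 1 was higher and 0 lower at an unadjusted p under 0.05, 4 were separated higher and 0 lower, and the median was -0.06.

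**Figure D4:**
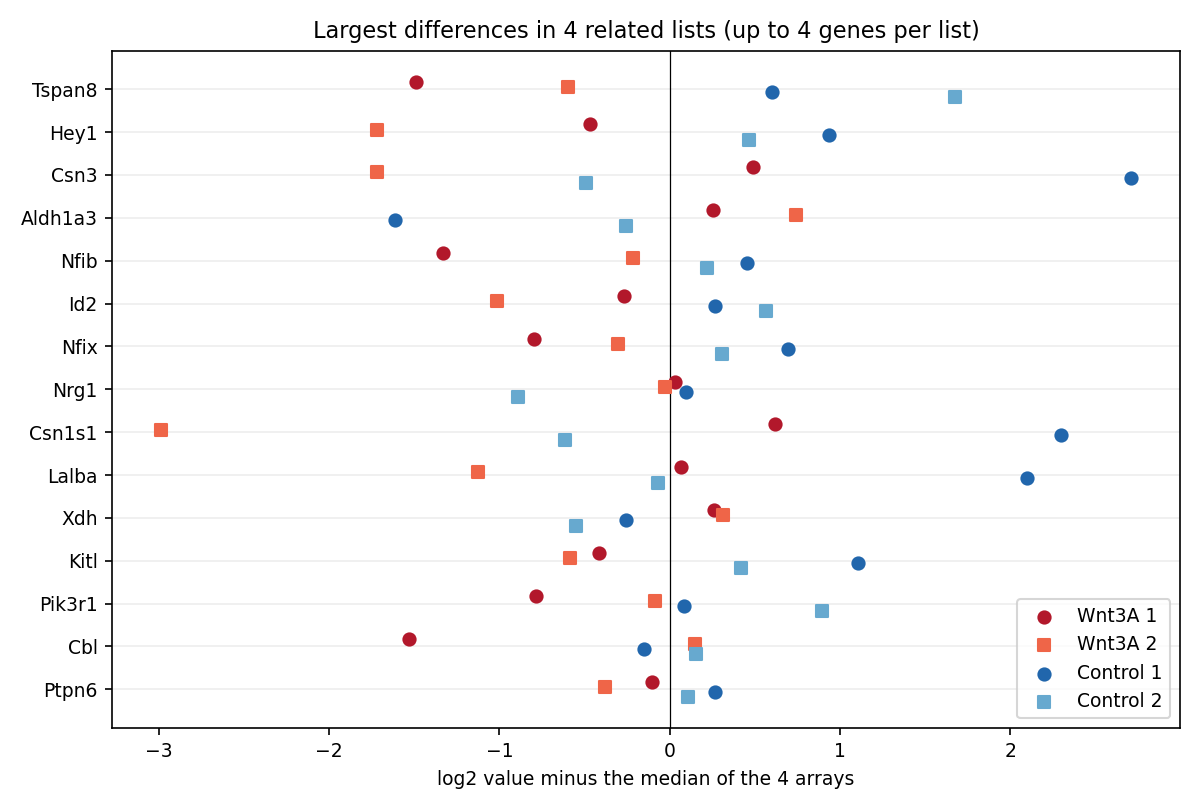
Log2 value minus the 4-array median (horizontal axis) on the Wnt3A arrays (red) and control arrays (blue) for the up to 4 genes with the largest difference in each of the lists for luminal progenitor partners, prolactin and alveolar growth, milk genes and Kit signalling (rows). Kitl, Id2, Nfix, Tspan8 and Hey1 have both Wnt3A arrays below both controls, while Csn1s1, Csn3 and Lalba are highest in Control 1.

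Among 49 probe sets of other Ets family genes the median difference was 0.01, with 1 higher and 3 lower at an unadjusted p under 0.05 and 10 separated higher and 4 lower. Spib and Spdef differed by -1.21 ± 0.20 and -0.93 ± 0.14, with both Wnt3A arrays below both controls. Etv5 differed by -0.85 ± 0.75 and was highest in Control 1, at 1.63. Elk3 differed by 0.54 ± 0.14, and its 4 probe sets ranged from 0.08 to 0.54.

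Co-receptors and adaptors of Cd14 had a median Wnt3A 2 minus Wnt3A 1 of -0.03, against -1.99 for Cd14 itself. Their 21 probe sets had a median Wnt3A minus control difference of 0.15, with 7 separated higher, 0 lower, and 2 higher at an unadjusted p under 0.05. Tlr2, a receptor for bacterial lipoproteins, stood at 0.74 and 0.18 in the Wnt3A arrays, against -0.59 and -0.18 in the control arrays (0.85 ± 0.26). Tirap, an adaptor of these receptors, differed by 0.45 ± 0.14, and the lipopolysaccharide receptor Tlr4 by 0.47 ± 0.42. The 4 Tlr4 probe sets ranged from -0.0065 to 0.47. Lbp, which carries lipopolysaccharide to Cd14, was lowest in Wnt3A 2, at 0.33 and -1.05 in the Wnt3A arrays, against 0.46 and -0.33 in the control arrays.

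Wfdc18's relatives gave 0 higher and 0 lower at an unadjusted p under 0.05 among 10 probe sets, with 1 separated higher and 2 lower and a median of -0.05. Wfdc12 differed by -1.27 ± 0.87, with -1.81 and 0.25 in the Wnt3A arrays, against -0.25 and 1.23 in the control arrays, so that Wnt3A 1 was lowest and Control 2 highest as for Wfdc18. Wfdc15b differed by -0.70 ± 0.27, Wfdc5 by 0.43 ± 0.36 and the protease inhibitor gene Slpi by -0.34 ± 0.16.

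Surface partners of Epcam, Muc1 and Cd24a had a median of 0.07 over 44 probe sets, with 3 higher and 3 lower at an unadjusted p under 0.05, and 16 separated higher and 6 lower. Besides Tspan8, the largest differences were those of Itgb1, which encodes CD29 (0.86 ± 0.31), Egfr (0.54 ± 0.16) and Ctnnd1, for p120 catenin (0.48 ± 0.21). The 6 Itgb1 probe sets ranged from 0.05 to 0.86, the 7 of Egfr from -0.0007 to 0.54 and the 3 of Ctnnd1 from 0.20 to 0.48. Luminal lineage markers had a median of 0.19 over 18 probe sets, with 0 in either direction at an unadjusted p under 0.05, and 7 separated higher and 2 lower. The luminal keratin Krt19 stood at -0.02 and -1.61 in the Wnt3A arrays, against 0.02 and 1.77 in the control arrays (-1.71 ± 0.82). Cldn4, Krt7 and Cldn3 lay higher with Wnt3A, by 1.14 ± 0.43, 0.83 ± 0.39 and 0.71 ± 0.30, and Control 1 was lowest for each.

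**Figure D5:**
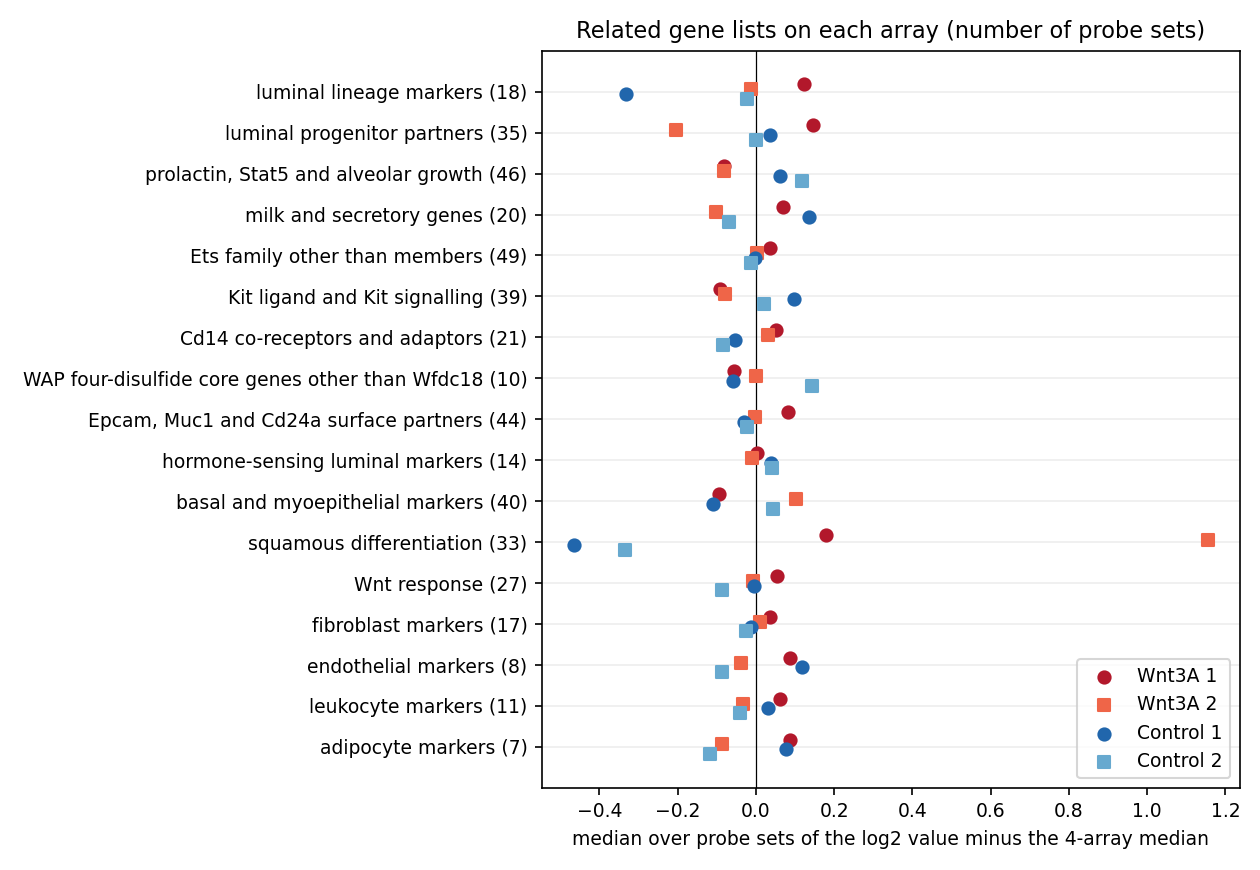
Median over probe sets of the log2 value minus the 4-array median (horizontal axis) for each related list (rows, with the number of probe sets) on the Wnt3A arrays (red) and the control arrays (blue). The squamous list stands apart at 1.16 in Wnt3A 2, and luminal progenitor partners are lowest in Wnt3A 2, at -0.20.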

How the data were processed

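RNA of 4 samples was measured on single-colour Affymetrix whole-genome mouse arrays. The submitters' processing notes name RMA, without a version, as the source of the deposited log2 values. Each of the 45101 rows had a median of 0 over the 4 arrays, so levels had been removed. The centring is recorded in none of the sources used here. Differences between arrays are unaffected. After 64 array controls were left out, 45037 probe sets remained, of which 34945 had a single symbol in GEO's platform annotation, 932 several and 9160 none. Groups were compared per probe set with limma 3.58.1 in R 4.3.3 (lmFit, eBayes, two-sided, Benjamini-Hochberg over all probe sets, no covariate, 2 residual and 2.30 prior degrees of freedom). Standard errors come from that fit. In simulated data for this comparison with 45037 probe sets, the fit recovered 0%, 46.3% and 72.7% of changes of 1, 2 and 3 log2 units. It also called 7 unchanged probe sets. The simulated noise was independent between arrays and drawn from the fit's own variances. In the data, gaps between arrays 1 and 2 correlated at 0.53 across the groups, so these rates may not hold there. Stfa3, at 4.11 ± 0.40, did not pass, and the smallest adjusted limma p over all probe sets was 0.51. Level bands come from the stored precision of the numbers and were correct for 98.4%, 91.6% and 93.8% of simulated probe sets at log2 8 to 16, 4 to 8 and below 4. The simulated numbers kept all stored digits, and deposited numbers may be rounded, so these rates may not hold for the data. Any probe set whose numbers matched neither upper band was placed below 4.

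The members and related lists were chosen with earlier results of these data known. Counts of lists are over probe sets. The rule named from each list up to 4 genes with the largest absolute difference, taking for each gene its probe set in the highest level band, and Axin2 and Procr always. For the basal, squamous, Wnt response, fibroblast, endothelial, leukocyte and adipocyte lists only some or none of these genes are named, for brevity. Listed genes for which no probe set with a single symbol was given were not analysed here. The number of arrays limits the precision. Alternatives were filters on the level bands, gene means, quantile normalization, column centring, eBayes in its robust form, a block for the replicate number and leaving out each array. Plots used matplotlib 3.10.9 (Python 3.11.15).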

Additional observations from a re-analysis of the deposited data

How the results depend on the processing

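Limma called 0 probe sets at an adjusted p under 0.05 in every fit listed in the processing summary, the fits without 1 array included, and 2801 of 45037 had an unadjusted p under 0.05. The count of member probe sets with separated groups was 3 of 19, and was 0 of 12 with the upper level band alone. It lay between 9 and 13 of 19 when 1 array was left out, since a group of 1 array has no spread and separates more readily. The share of all probe sets was not computed for the upper band or without 1 array. The rise when 1 array was left out is thus no result about the members. The median difference of members lay between -0.26 and -0.02 when 1 array was left out. The count of members with a lower mean, 16 of 19, lay between 10 and 15 when 1 array was left out, an alternative chosen after seeing the data, where 44% to 53.9% of all probe sets had a lower mean. The sign of Elf5 1419556_at turned in the gene means (-0.086 over all probe sets, -0.30 over the highest band), as did that of Cd24a 1437502_x_at (0.044 in both), because probe sets of these genes differ in sign. Leaving out 1 array kept the sign of 5 of the 19 probe sets (1 each of Kit, Elf3, Wfdc18, Stat5a and Cd24a) and turned it for the other 14 under at least 1 array. Their ranges were -0.26 to 0.10 for Kit 1415900_a_at, -0.26 to 0.51 and -1.72 to 1.12 for Elf5, -0.83 to 0.30, -0.79 to 0.31, -0.26 to 0.21 and -0.082 to 0.068 for Ehf, -1.07 to 0.92 for Cd14, -0.59 to 0.19 for Stat5a 1450259_a_at, -0.44 to 0.29 for Muc1, -0.64 to 0.20 and -0.090 to 0.34 for Cd24a, and -0.41 to 0.015 and -0.21 to 0.022 for Epcam. Arrays share only a number between groups. Control 2 minus Control 1 and Wnt3A 2 minus Wnt3A 1 correlated at 0.53 across probe sets, which are not independent. With the replicate number as a block, 4882 probe sets had an unadjusted p under 0.05 and 0 passed the adjusted threshold. Under that block the unadjusted p was 0.0094 for Kit 1452514_a_at and 0.022 for both Wfdc18 and Stat5a 1421469_a_at. Centred values carry no level over background.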

Other observations

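Hormone-sensing luminal genes, which mark the other luminal lineage, differed in both directions: of the 14 probe sets in the list, 5 were separated higher and 5 lower with Wnt3A. The 4 genes with the largest absolute differences all had lower means. Foxa1, a transcription factor that works with the oestrogen receptor, stood at -1.85 and -0.68 in the Wnt3A arrays, against 0.68 and 1.47 in the control arrays (-2.34 ± 0.50 log2 units, SE, n = 2 arrays per group). Pgr, the progesterone receptor gene, stood at -0.47 and -0.31 in the Wnt3A arrays, against 0.31 and 1.40 in the control arrays (-1.25 ± 0.40), and its 3 probe sets ranged from -1.25 to -0.20. Cited1 had -1.65 and -0.09 in the Wnt3A arrays, against 0.09 and 3.21 in the control arrays. Esr1, the oestrogen receptor gene, had -0.39 and 0.09 in the Wnt3A arrays, against -0.09 and 1.38 in the control arrays, and its 3 probe sets ranged from -0.80 to 0.15. On these probe sets all 4 genes were lowest in Wnt3A 1 and highest in Control 2, as Wfdc18 was, whereas Elf5 and Cd14 were highest in Wnt3A 1 and lowest in Wnt3A 2. Wnt4, a Wnt ligand, was higher, at 0.13 and 0.53 in the Wnt3A arrays, against -0.47 and -0.13 in the control arrays (0.64 ± 0.21), and Prom1 and Tnfsf11 also had both Wnt3A arrays above both controls, by 0.50 ± 0.20 and 0.25 ± 0.14. These 3 were named after their values were seen. Of the 14 probe sets, 0 passed the adjusted limma test, and 1 was higher and 2 lower at an unadjusted p under 0.05.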
